A study of Anser cygnoides with 6 samples.

Results

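The 71 gene models of oxidative phosphorylation in goose liver described here are those among the 21009 of the deposited mRNA table whose text description names a subunit or assembly factor of complexes I, III, IV or V or the cytochrome c carrier. The choice used descriptions only and no expression value. The words of the rule matched 23 models of complex I, 1 of complex III, 28 of complex IV, 18 of complex V and 1 cytochrome c model. By role these were 46 subunits, the carrier, 14 assembly or biogenesis factors and 10 complex IV models whose descriptions name the mitochondrially encoded subunits COX2 or COX3. A further 19 models of the V-type ATPase, a proton pump of lysosomes and other acidic organelles, were left out. Gene symbols were assigned from the descriptions. Of the 61 models other than these 10, 54 carried a symbol that is also in the RefSeq annotation of the goose.

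Oxidative phosphorylation is the process by which mitochondria turn the electrons taken from food into ATP. Complex I (NADH dehydrogenase) and complex II (succinate dehydrogenase) pass electrons to ubiquinone, complex III (the cytochrome b-c1 complex) passes them on to the small carrier protein cytochrome c, and complex IV (cytochrome c oxidase) hands them to oxygen. Complexes I, III and IV pump protons across the inner membrane, and complex V (ATP synthase) makes ATP as the protons flow back. In liver this chain also takes up the electrons released when fatty acids are burned, and assembly factors build the complexes without staying in them. A few core subunits are encoded by mitochondrial DNA and the others by nuclear genes.

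Liver RNA came from 6 lion-head geese, 3 high-intake-fed and 3 normally-fed, with 1 library per bird. The birds belonged to 1 purebred population, were 120 days old at the start and were fed for 38 days, and feed was withheld overnight before sampling. The high-intake-fed birds were force-fed several meals a day, boiled rice included, and the normally-fed birds ate freely. Each group was housed in its own isolator, so that feeding and isolator cannot be told apart, and males and females were both used in the trial, and the sex of these 6 birds is not known here. Libraries held 14154910 to 16993373 counts, and ALB, APOB and TF, which hepatocytes make for the plasma, were each at 5227 CPM or more in every bird (CPM are counts scaled to a common library size, here with edgeR's trimmed-mean factors). The samples were bulk liver, in which fewer cells of a type and less RNA per cell cannot be told apart.

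Of the 71 models, 60 passed the filter on low counts and were tested for a difference between high-intake-fed and normally-fed birds. Models not tested were the 10 models described as COX2 or COX3, of which 8 had no count in any bird and none had more than 3, and 1 of the 4 models of the ATP synthase c subunit. The COX2 and COX3 models lie on chromosomes 9 and 25 and on an unplaced contig, with coding lengths of 228 to 744 bases. Their counts therefore give no level for the genes in mitochondrial DNA. No subunit encoded there is among the tested members. None of the 60 members passed edgeR's quasi-likelihood test at an adjusted p under 0.05, where 1.47% of the 12914 tested mRNAs passed. At an unadjusted p under 0.05, 5 of 60 members passed (8.3%), against 18.4% of all tested mRNAs. With other tools on the same birds, DESeq2 called 2 members (CYCS and COA3), edgeR's exact test called 1 (CYCS) and limma on log2 values called 0. These tools called 7.82%, 6.26% and 1.63% of all mRNAs tested.

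Fold changes of the members lay mostly above zero and were small. Of the 60 members, 48 had a positive log2 fold change (high-intake-fed over normally-fed) and 12 a negative one, which is 80.0% positive, against 52.8% of all tested mRNAs. The median log2 fold change was 0.20 over the members, with a range of -0.94 to 1.47, and 0.04 over all tested mRNAs. This lean was not particular to the members. The 16 tested V-type ATPase models, which are outside the chain, had 13 positive and 3 negative (81.2% positive), with a median of 0.19. Of the 69 tested cytosolic ribosomal proteins 29% were positive, with a median of -0.11. The median standard error of a member was 0.32, larger than the median fold change, and 49 members had a fold change within 0.5 of zero on the log2 scale. The 46 tested subunits and carrier had a median of 0.24, with 40 positive and 6 negative, and the 14 assembly and biogenesis factors had a median of 0.04, with 8 positive and 6 negative. The difference between these 2 roles was not tested.

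**Figure D1:**
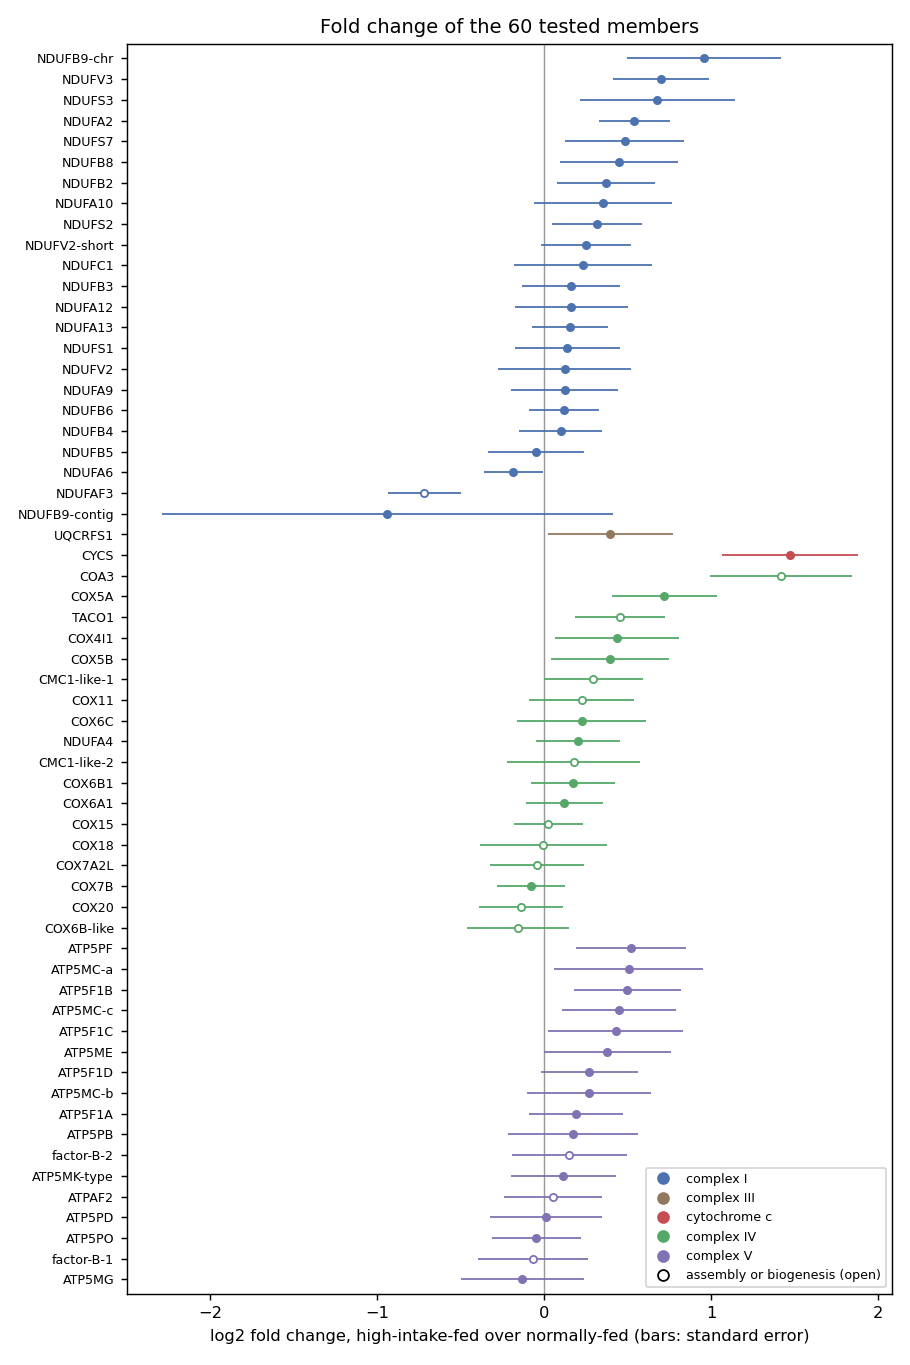
Log2 fold change (high-intake-fed over normally-fed, x axis) of the 60 tested members with its standard error (bars), grouped by complex from top to bottom and sorted within each; open circles are assembly or biogenesis factors. Most points lie between 0 and 0.5, CYCS is at 1.47 and COA3 at 1.42, and the NDUFB9 model on the contig has the longest bar.

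The 3 high-intake-fed birds did not move together. The deviation of a member in a bird was taken as its log2(CPM + 1) minus the mean of the normally-fed birds, and the median deviation over the 60 members was 0.35, 0.52 and -0.42 in high-intake-fed birds 1, 2 and 3, against -0.07, 0.09 and -0.04 in normally-fed birds 1, 2 and 3. By these medians, high-intake-fed birds 1 and 2 stood above the normally-fed birds and bird 3 below them. The summed level of the 71 models was 6363, 7481 and 3635 CPM in the high-intake-fed birds, against 4587, 5072 and 4727 CPM in the normally-fed birds. The means were 5827 ± 1979 CPM and 4795 ± 250 CPM (SD, n = 3 each), so the difference between groups was smaller than the spread within the high-intake-fed birds.

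Gene by gene the same split was common. Its order was read from the medians of these same members in these same birds. The counts of it, here and by complex, therefore describe the split and do not test it. In 30 of the 60 members (50%) high-intake-fed birds 1 and 2 were both above every normally-fed bird while bird 3 was below every one, and 749 of the 12914 tested mRNAs (5.8%) had that order. The members are short and abundant, with a median coding length of 433.5 bases and a median level of 49.6 CPM, against 1275 bases and 13.1 CPM over all tested mRNAs. The share was 9.6% in the shortest of 5 classes of coding length and 13.4% in the most abundant of 5 classes. High-intake-fed bird 3 had the lowest value of the 6 birds in 38 members (63.3%, against 20.9% of all tested mRNAs). The highest value was in high-intake-fed bird 1 or 2 in 52 members (86.7%, against 36.3%). In the most abundant class these 2 shares were 36.7% and 53.4%, and in the shortest class 28.9% and 43.4%. Other lists described below had similar shares in part. They were 91.3% and 73.9% in cytosolic ribosomal proteins, 62.5% and 81.2% in V-type ATPase models, and 25% and 95% in a list of mitochondrial mass. The SD of log2(CPM + 1) had a median over the members of 0.55 in high-intake-fed and 0.17 in normally-fed birds, while over all tested mRNAs it was 0.36 and 0.22.

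**Figure D2:**
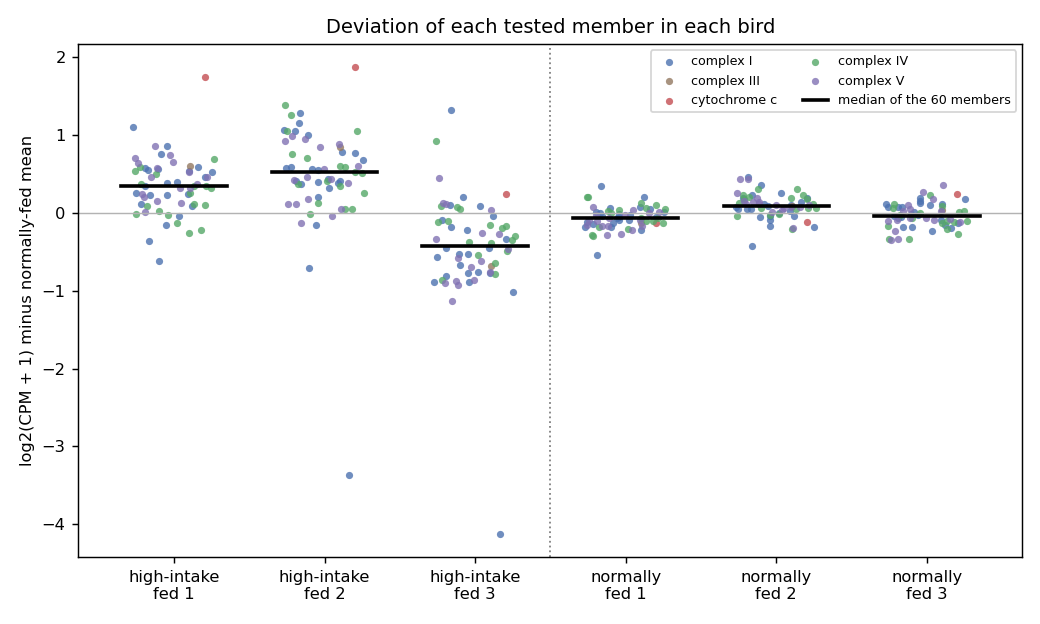
Each point is 1 of the 60 tested members in 1 bird, coloured by complex; the y axis is its log2(CPM + 1) minus the mean of the normally-fed birds, and black lines are medians over the members. The medians are 0.35, 0.52 and -0.42 in the high-intake-fed birds, against -0.07, 0.09 and -0.04 in the normally-fed birds; the 2 points below -3 are the NDUFB9 model on the contig.

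The group difference depended on single birds. Each bird was left out in turn, and the fits given here were picked after the split was seen. Without high-intake-fed bird 3, the median log2 fold change of the members was 0.47, 27 of 61 tested members passed an unadjusted p under 0.05 (25% of all mRNAs tested did), and 2 members (NDUFS3 and CYCS) passed the adjusted threshold, where 3.89% of mRNAs were called. Without high-intake-fed bird 2 the median was 0.01, with 33 members positive and 27 negative, and 0 were called (where 1.22% of mRNAs were). At an unadjusted p under 0.05, 3 members passed, against 16.9% of all mRNAs tested. The split of birds was also present under 3 other scalings. The median deviation of the members in high-intake-fed birds was 0.21, 0.46 and -0.24 when scaled by library size only, 0.38, 0.52 and -0.44 with DESeq2-type (RLE) size factors and 0.25, 0.55 and -0.23 in the deposited FPKM (fragments scaled by gene length and library depth).

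Complex I takes electrons from NADH, and its 23 members here had a median log2 fold change of 0.16, with 19 positive and 4 negative. The median deviation in the high-intake-fed birds was 0.38, 0.56 and -0.53, and 12 of the 23 members showed the split of birds described above. Levels between genes were compared as CPM per kilobase of coding length. The deposited FPKM ranks some members otherwise. On that scale the highest complex I members were NDUFA13 with 183, NDUFS1 with 182 and NDUFB3 with 180 as means of the 6 birds.

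NDUFS1 is the large iron-sulfur subunit at the entry of electrons into complex I. Its level was 492, 497 and 261 CPM in high-intake-fed birds 1, 2 and 3, against 371, 335 and 430 CPM in normally-fed birds. The lowest value was that of high-intake-fed bird 3 and the log2 fold change was 0.14 (SE 0.31, edgeR adjusted p = 0.869). NDUFA13, an accessory subunit also known as GRIM-19 and studied in mammals for a role in cell death, had 87.9, 97.3 and 66.1 CPM in high-intake-fed birds, against 72.7, 87.5 and 65.9 CPM in normally-fed birds. These groups overlapped and the log2 fold change was 0.15 (SE 0.23). NDUFB3, a membrane-arm accessory subunit, had 59.0, 73.8 and 33.0 CPM in high-intake-fed birds, against 45.2, 51.1 and 51.9 CPM in normally-fed birds, with a log2 fold change of 0.16 (SE 0.29).

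NDUFA2 and NDUFV3, accessory subunits of the matrix arm, were the complex I subunits whose high-intake-fed values all lay above the normally-fed ones. NDUFA2 (chromosome 16, 12374395 to 12375533) had 48.3, 42.0 and 32.6 CPM in high-intake-fed birds, against 25.6, 30.5 and 28.4 CPM in normally-fed birds. Its log2 fold change was 0.54 (SE 0.21, edgeR adjusted p = 0.228). NDUFV3 (chromosome 1, 98487447 to 98495402) had 23.8, 36.7 and 17.3 CPM in high-intake-fed birds, against 16, 16.6 and 15.3 CPM in normally-fed birds. High-intake-fed bird 3 lay close to the normally-fed birds here, and the log2 fold change was 0.70 (SE 0.29, edgeR adjusted p = 0.246). Neither difference passed the adjusted threshold.

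NDUFA6, an accessory subunit of the LYR protein family, ran slightly the other way. It had 20.9, 20.7 and 19.9 CPM in high-intake-fed birds, against 22.3, 24.9 and 22.8 CPM in normally-fed birds. All 3 high-intake-fed birds were below the normally-fed ones, but the log2 fold change was only -0.19 (SE 0.18, edgeR adjusted p = 0.635).

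NDUFAF3, which in mammals helps to assemble complex I and is not part of the finished enzyme, had the lowest p-value among members with a negative fold change. This model (chromosome 12, 9925443 to 9926454) had 18.8, 17.6 and 18 CPM in high-intake-fed birds, against 25.8, 37.9 and 25.8 CPM in normally-fed birds. The high-intake-fed birds were close to one another, bird 3 included, and all below the normally-fed birds. The log2 fold change was -0.72 (SE 0.22, edgeR adjusted p = 0.148), which did not pass.

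NDUFS3, a core subunit of the matrix arm, was singled out after its values were seen because it was called without high-intake-fed bird 3. This model (chromosome 6, 12514318 to 12519020) had 126, 123 and 31.0 CPM in high-intake-fed birds, against 51.0, 61.2 and 62.8 CPM in normally-fed birds. High-intake-fed birds 1 and 2 had the highest values and bird 3 the lowest of all 6 birds. With all birds the log2 fold change was 0.68 (SE 0.47, edgeR adjusted p = 0.493), and without bird 3 it was 1.10 (edgeR adjusted p = 0.0307). NDUFA10, an accessory subunit also chosen after its values were seen, had 294, 237 and 86.4 CPM in high-intake-fed birds, against 151, 157 and 176 CPM in normally-fed birds.

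NDUFB9, a membrane-arm subunit of the LYR family, was represented by a pair of models of equal coding length (525 bases), 1 on chromosome 2 (152932623 to 152936714) and 1 on the unplaced Contig283end (68512 to 72602). RefSeq lists 1 NDUFB9 gene in the goose. The chromosome 2 model had 110, 411 and 439 counts in high-intake-fed birds, against 198, 123 and 166 counts in normally-fed birds. The contig model had 364, 11 and 0 counts in high-intake-fed birds, against 256, 310 and 222 counts in normally-fed birds. The contig model therefore held 76.8%, 2.61% and 0% of the NDUFB9 counts in high-intake-fed birds, against 56.4%, 71.6% and 57.2% in normally-fed birds.

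The fitted log2 fold changes were 0.96 (SE 0.46) for the chromosome 2 model and -0.94 (SE 1.35) for the contig model, which were the largest of complex I in each direction. Summed over both models, the counts were 474, 422 and 439 in high-intake-fed birds, against 454, 433 and 388 in normally-fed birds. The sums were alike across the 6 birds, and the log2 fold change of the sum, an analysis chosen after seeing the data, was 0.10 (SE 0.19, edgeR adjusted p = 0.841). The single models are thus uncertain, and the handling of reads that match both models was not stated in the sources used here.

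**Figure D3:**
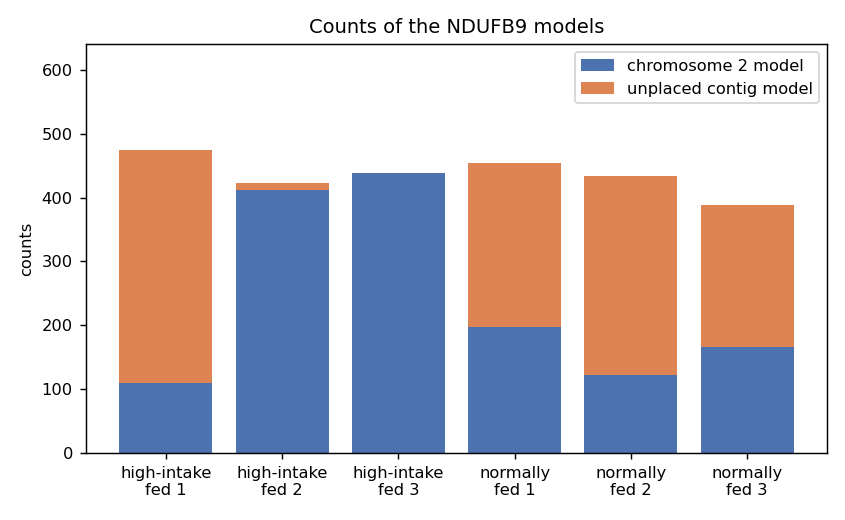
Stacked bars give the counts of the NDUFB9 model on chromosome 2 (blue) and of the model on the unplaced contig (orange) in each bird (y axis, counts). The contig model holds 11 counts in high-intake-fed bird 2 and 0 in bird 3, while the summed height lies between 388 and 474 counts in all 6 birds.

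Complex III was represented by UQCRFS1 alone, the Rieske iron-sulfur protein that takes electrons from ubiquinol. This model (chromosome 14, 2387117 to 2390633) had 183, 218 and 74.7 CPM in high-intake-fed birds, against 110, 128 and 124 CPM in normally-fed birds. It showed the split of birds in full, with birds 1 and 2 above and bird 3 below every normally-fed bird. The log2 fold change was 0.40 (SE 0.37, edgeR adjusted p = 0.634).

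CYCS, the cytochrome c that shuttles electrons from complex III to complex IV and that triggers caspases when it leaves the mitochondrion, had the largest fold change and the smallest adjusted p of the 60 members. This model (chromosome 2, 36874342 to 36874833) had 1284, 1535 and 506 counts in high-intake-fed birds, against 357, 405 and 477 counts in normally-fed birds. In CPM these were 89.2, 97.3 and 30.7 in high-intake-fed birds, against 23.7, 23.9 and 30.7 in normally-fed birds. High-intake-fed bird 3 was level with the highest normally-fed bird, and the other 2 were far above. The means were 72.4 ± 36.3 CPM and 26.1 ± 3.99 CPM (SD, n = 3 each).

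The log2 fold change of CYCS was 1.47 (SE 0.41, a 2.77-fold higher mean level), with an edgeR quasi-likelihood adjusted p = 0.121, and an exact permutation test over the birds (two-sided) gave p = 0.1, the smallest that 3 against 3 can give. CYCS therefore did not pass the adjusted threshold of that test. DESeq2 gave an adjusted p of 0.0130 and edgeR's exact test 0.0204. Without high-intake-fed bird 3, edgeR gave a log2 fold change of 1.84 with an adjusted p of 0.0130. That fit was singled out after the split of birds was seen. On the per-length scale CYCS stood at 155 CPM per kilobase, near UQCRFS1 with 170.

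**Figure D4:**
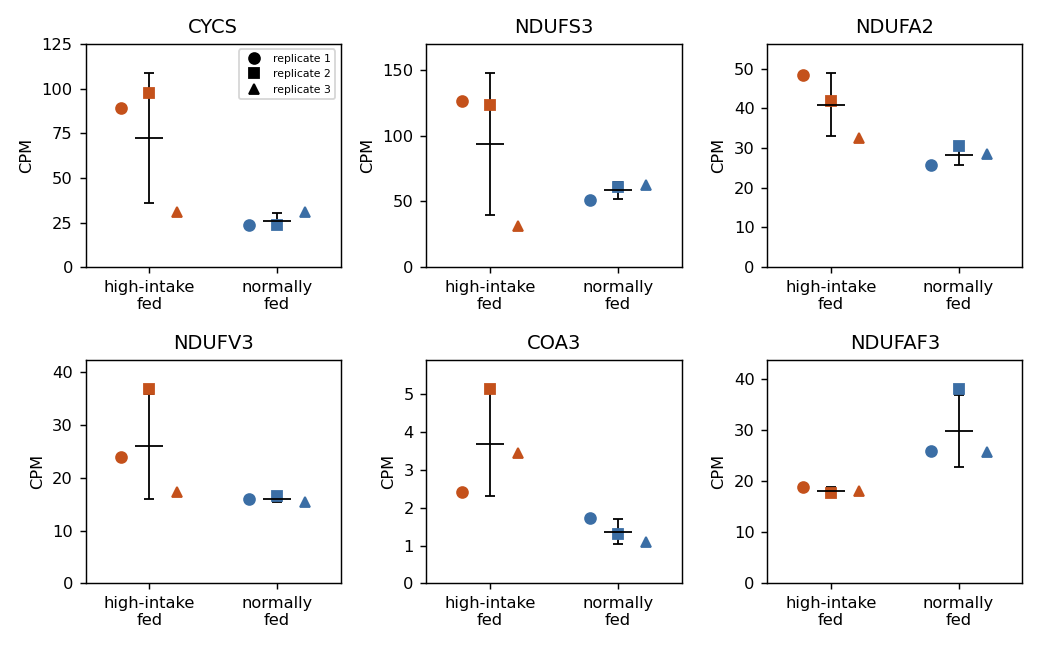
Levels (CPM, y axis from 0) of CYCS, NDUFS3, NDUFA2, NDUFV3, COA3 and NDUFAF3 in each bird, high-intake-fed (orange, left) and normally-fed (blue, right), with marker shapes for the replicate number and black lines for the mean ± SD of 3 birds. High-intake-fed bird 3 (orange triangle) is at 30.7 CPM for CYCS and at 31.0 CPM for NDUFS3, below the other high-intake-fed birds.

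Complex IV reduces oxygen to water, and its 18 tested members had a median log2 fold change of 0.19, with 13 positive and 5 negative. The 8 nuclear-encoded subunits had a median of 0.21, with 7 positive and 1 negative. The median deviation of the 18 members in the high-intake-fed birds was 0.18, 0.52 and -0.24, and 6 of them showed the split of birds. COX6A1, COX4I1 and COX5B were the highest by CPM per kilobase, with 416, 412 and 368. By mean deposited FPKM the highest were COX6A1 (260), COX6B1 (186) and COX4I1 (175), and COX5B had 101.

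COX4I1, the regulatory subunit that binds ATP, had 230, 374 and 128 CPM in high-intake-fed birds, against 172, 188 and 182 CPM in normally-fed birds. COX5B, a zinc-binding subunit, had 118, 249 and 110 CPM in high-intake-fed birds, against 138, 131 and 94.8 CPM in normally-fed birds. COX6A1, an accessory subunit at the dimer interface, had 137, 167 and 121 CPM in high-intake-fed birds, against 114, 150 and 127 CPM in normally-fed birds. In all 3 genes high-intake-fed bird 2 was the highest of the 6 birds, and the groups overlapped. Their log2 fold changes were 0.43 (SE 0.37), 0.39 (SE 0.35) and 0.12 (SE 0.23).

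COX5A, a nuclear-encoded structural subunit, had the smallest p of the complex IV subunits. It had 67.3, 107 and 47.5 CPM in high-intake-fed birds, against 36.3, 52.1 and 46.5 CPM in normally-fed birds. High-intake-fed birds 1 and 2 were above all normally-fed birds and bird 3 lay among them. The log2 fold change was 0.72 (SE 0.31, edgeR adjusted p = 0.276).

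Among the complex IV assembly and biogenesis members, COA3 and TACO1 act on the mitochondrially encoded subunit COX1 in mammals. COA3 (chromosome 30, 2439904 to 2440309) had 35, 81 and 57 counts in high-intake-fed birds, against 26, 22 and 17 counts in normally-fed birds. All 3 high-intake-fed birds, bird 3 included, were above the normally-fed birds, at low counts. The log2 fold change was 1.42 (SE 0.42, edgeR quasi-likelihood adjusted p = 0.140, DESeq2 adjusted p = 0.0423). TACO1, which activates COX1 translation, had 18.1, 21 and 13.3 CPM in high-intake-fed birds, against 12.7, 15.8 and 9.72 CPM in normally-fed birds, with a log2 fold change of 0.45 (SE 0.27).

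The complex IV members with negative fold changes stayed near zero. COX20, a chaperone of the COX2 subunit, had 6.11, 7.61 and 6.26 CPM in high-intake-fed birds, against 6.70, 8.68 and 6.63 CPM in normally-fed birds, a log2 fold change of -0.14 (SE 0.25). A model described as like COX6B, grouped here with the assembly factors, had 10.3, 9.77 and 5.65 CPM in high-intake-fed birds, against 8.70, 11.9 and 8.05 CPM in normally-fed birds. The groups overlapped for both models, and the second had a log2 fold change of -0.16 (SE 0.31).

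Complex V makes ATP, and its 17 tested members had a median log2 fold change of 0.19, with 14 positive and 3 negative. The split of birds was found in 11 of the 17 members, and the median deviation in the high-intake-fed birds was 0.46, 0.44 and -0.57. The 14 tested subunits had a median log2 fold change of 0.27. The summed level of the complex was 3175, 3687 and 1835 CPM in high-intake-fed birds, against 2274, 2557 and 2275 CPM in normally-fed birds.

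The subunits ATP5F1A (alpha) and ATP5F1B (beta) form the ATP-making head, and ATP5PB is part of the stator that holds the head still. ATP5PB had 446 CPM per kilobase, ATP5F1A 397 and ATP5F1B 382, the highest of the complex. ATP5F1A had 794, 806 and 508 CPM in high-intake-fed birds, against 613, 651 and 584 CPM in normally-fed birds. ATP5F1B had 693, 1159 and 639 CPM in high-intake-fed birds, against 616, 648 and 499 CPM in normally-fed birds. High-intake-fed bird 3 was the lowest of the 6 birds for the alpha subunit but lay among the normally-fed birds for the beta subunit. ATP5PB had 354, 329 and 125 CPM in high-intake-fed birds, against 212, 258 and 247 CPM in normally-fed birds. The log2 fold changes were 0.19 (SE 0.28) for ATP5F1A, 0.50 (SE 0.32) for ATP5F1B and 0.17 (SE 0.39) for ATP5PB.

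ATP5PF (coupling factor 6 of the stator) had 104, 121 and 50.2 CPM in high-intake-fed birds, against 57.0, 76.0 and 58.9 CPM in normally-fed birds, with a log2 fold change of 0.52 (SE 0.33, edgeR adjusted p = 0.453). It showed the same split of birds. The c subunit forms the rotor ring through which protons pass, and 4 models matched it, where RefSeq lists 3 genes in the goose. Summed over the 4 models, an analysis chosen after seeing the data, the c subunit had 340, 347 and 111 CPM in high-intake-fed birds, against 172, 220 and 202 CPM in normally-fed birds. The log2 fold change of the sum was 0.42 (SE 0.42, edgeR adjusted p = 0.652). The least abundant of the 3 tested models (ATP5MC-c) had 7.50, 4.88 and 6.44 CPM in high-intake-fed birds, against 4.12, 6.37 and 3.28 CPM in normally-fed birds. The fourth model was not tested and had 1, 54 and 2 counts in high-intake-fed birds, against 1, 0 and 37 counts in normally-fed birds.

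The 36 tested members outside the naming rule had log2 fold changes of -0.13 to 0.68 and adjusted p-values of 0.493 and above in edgeR. For 2 of the members, the complex I subunit NDUFC1 and an ATP synthase membrane subunit model, the deposited FPKM was listed at 0 in every bird although the deposited counts were 156 to 593 per bird. The methods do not say which program gave the deposited FPKM, and counts were used throughout.

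Over the 60 members, groups did not overlap with high-intake-fed birds above in 4 (NDUFV3, NDUFA2, CYCS and COA3; 6.7%, against 11.1% of all tested mRNAs) and below in 2 (NDUFA6 and NDUFAF3; 3.3%, against 13.3%). Both shares were below the background. Scaled by library size only, 5 members were above (11% of all tested mRNAs were) and 1 below (12%), and in the deposited FPKM 6 were above (9.22%) and 1 below (11%). For CYCS the separation was under 0.1 CPM, between high-intake-fed bird 3 and normally-fed bird 3.

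Neighbouring pathways were described from lists chosen with earlier results of these data known, and none of their members passed edgeR's quasi-likelihood test at an adjusted p under 0.05. At an unadjusted p under 0.05, 18.4% of all tested mRNAs passed. Complex II feeds electrons from the citric acid cycle. It had 5 tested models with a median log2 fold change of 0.18, 3 positive and 2 negative. Of these, 0 had an unadjusted p under 0.05. The assembly factor SDHAF2 had the largest value (0.42). The subunits were at -0.26 (SDHA), 0.23 (SDHB), 0.18 (SDHC) and -0.14 (SDHD). Electron entry and ubiquinone synthesis had 8 tested models with a median of 0.17, 6 positive and 2 negative, and 1 at an unadjusted p under 0.05. These came from a list of 15 symbols. All were COQ genes of ubiquinone synthesis except GPD2, the only electron-entry model matched, with a log2 fold change of 0.006. ADP/ATP exchange and the ATP synthase inhibitor had 4 tested models with a median of 0.10, 3 positive and 1 negative, and 0 at an unadjusted p under 0.05. The only uncoupling protein model found, UCP3, had too few counts to be tested.

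Genes that serve mitochondria more widely had higher medians than the chain itself, a difference that was not tested. A list of mitochondrial mass (citrate synthase, porins, import proteins, mitochondrial chaperones, prohibitins, mitofusins) had 20 tested models with a median log2 fold change of 0.52, 19 positive and 1 negative. Of these, 8 had an unadjusted p under 0.05 (40%, against 18.4% of all tested mRNAs). This share counts models and not genes, and includes the citrate synthase models CS-1 and CS-2 and the mitofusin model MFN-1. CS-1 had 11.9, 113 and 13.7 CPM in high-intake-fed birds, so its rise was mainly in bird 2. The same held for CS-2, with 25, 313 and 58 counts in high-intake-fed birds, against 37, 23 and 6 counts in normally-fed birds. Among the mitofusin models, MFN-1 had 2595, 5728 and 950 counts in high-intake-fed birds and MFN-3 had 2, 1 and 801. In normally-fed birds they had 828 to 919 and 281 to 755 counts. Whether the models of citrate synthase or of mitofusin are separate genes was not tested, so these single models are uncertain. The median deviation of the list was 0.59, 0.71 and 0.01 in the high-intake-fed birds, so that bird 3 stood at the normally-fed level there and not below it. HSPD1, the mitochondrial chaperonin, had 972, 1312 and 655 CPM in high-intake-fed birds, against 551, 518 and 669 CPM in normally-fed birds, and in bird 3 it lay within the normally-fed range. Its log2 fold change was 0.76 (SE 0.33, edgeR adjusted p = 0.269). A list of regulators of mitochondrial gene expression had 8 tested models with a median of 0.43, 6 positive and 2 negative. Of these, 3 had an unadjusted p under 0.05 (37.5%, against 18.4% of all tested mRNAs). The list held 18 symbols, and TFAM was among those with no model matched. PPARGC1A, a coactivator that in mammals drives mitochondrial biogenesis, had 4.03, 1.20 and 3.40 CPM in high-intake-fed birds, against 9.96, 4.72 and 12.1 CPM in normally-fed birds. All 3 high-intake-fed birds were below the normally-fed birds, with a log2 fold change of -1.63 (SE 0.51, edgeR adjusted p = 0.155).

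Its paralogue PPARGC1B lay the other way, with 4.10, 5.20 and 6.68 CPM in high-intake-fed birds, against 3.72, 1.71 and 0.579 CPM in normally-fed birds. All 3 high-intake-fed birds were above the normally-fed ones, with a log2 fold change of 1.41 (SE 0.59, unadjusted p = 0.0444 in edgeR), which did not pass the adjusted threshold. TFB2M, a mitochondrial transcription factor, had 84.6, 133 and 41.9 CPM in high-intake-fed birds, against 33.2, 39.1 and 45.6 CPM in normally-fed birds. High-intake-fed bird 3 lay among the normally-fed birds, and the log2 fold change was 1.13 (SE 0.39, unadjusted p = 0.0188 in edgeR), which did not pass either (edgeR adjusted p = 0.177, and 0.0350 without high-intake-fed bird 3). POLG, of the same list, went the other way, with 15.1, 12.4 and 31.3 CPM in high-intake-fed birds, against 26.3, 32.5 and 27.5 CPM in normally-fed birds. Its log2 fold change was -0.55 (SE 0.35, edgeR adjusted p = 0.448). Without high-intake-fed bird 3 it was -1.06 (edgeR adjusted p = 0.0444). The fit without bird 3 was singled out for TFB2M and POLG after their values were seen, so its p-values are no independent support. PPARGC1A, PPARGC1B and TFB2M are the 3 of the list with an unadjusted p under 0.05.

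Other lists show what else moved with the split of birds. The 69 tested cytosolic ribosomal proteins had a median deviation of 0.29, 0.26 and -1.09 in high-intake-fed birds, against -0.28, 0.16 and 0.08 in normally-fed birds, and 37.7% of them had high-intake-fed birds 1 and 2 above and bird 3 below every normally-fed bird. Their median log2 fold change was -0.11, with 20 positive and 49 negative. The 16 tested V-type ATPase models had 0.39, 0.38 and -0.23 in high-intake-fed birds. In the shortest class of coding length the median deviation was 0.06, 0.07 and -0.08 in high-intake-fed birds, and in the longest it was -0.14, -0.13 and 0.08. The part of coding length or of bird 3's RNA in the members' split was not tested.

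Markers of the cells in the sample were examined by bird. The 7 hepatocyte markers found (ALB, APOB, TF, TTR and the 3 fibrinogen chains) had median deviations of -0.61, -1.45 and -1.55 in the high-intake-fed birds, with 7 of 7 negative in log2 fold change. APOB and TTR were near zero, at -0.09 (SE 0.54) and -0.10 (SE 0.38). Their highest values were in high-intake-fed birds 1 and 2. The model matched as TTR had a coding length of 2463 bases and 12.3 CPM per kilobase. Whether it is the transthyretin gene was not tested. In 4 markers all high-intake-fed birds were below the normally-fed birds (57.1%, against 13.3% of all tested mRNAs), namely TF and the fibrinogen chains. The summed level of the 7 markers was 257970, 111265 and 207940 CPM in high-intake-fed birds, against 241700, 255966 and 329902 CPM in normally-fed birds. None was at 0 in any bird, but FGB was at 6.11 CPM in high-intake-fed bird 1, against 1531 to 3205 CPM in normally-fed birds. In that bird FGA and FGG were at 2019 and 7901 CPM, so the FGB model is uncertain. The cause was not tested. The summed level of the 7 markers is led by ALB and was lowest in high-intake-fed bird 2, where the members were highest. For the ALB model the deposited FPKM was 0 in every bird, although its counts were 1114917 to 3766878. Its coding length was 3897 bases, and whether it is a sound model of the gene was not tested.

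The 4 tested blood cell models (HBA, a pair of HBB models and SLC4A1) had median deviations of 0.57, 0.99 and 1.47 in the high-intake-fed birds, with 4 of 4 positive in log2 fold change. With 1 untested HBB model, which had no count in 5 of the 6 birds, the summed level was 540 to 883 CPM in high-intake-fed birds, against 207 to 366 CPM in normally-fed birds. The haemoglobin alpha model HBA had 262, 377 and 391 CPM in high-intake-fed birds, against 99.0, 149 and 159 CPM in normally-fed birds. None of the hepatocyte and blood models passed edgeR's adjusted threshold. At an unadjusted p under 0.05, 3 of the hepatocyte and 2 of the blood models passed (18.4% of all tested mRNAs did).

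The other marker lists were small. The 3 macrophage markers (C1QA, C1QB and C1QC) had median deviations of -0.47, 0.36 and -0.12 in the high-intake-fed birds, and the 4 stellate and endothelial markers (DCN, LUM, DES and PECAM1) had -0.38, -0.01 and -0.07. These last medians join markers that moved apart. All high-intake-fed birds were below the normally-fed birds for DCN (log2 fold change -0.88, SE 0.27) and above them for LUM (0.93, SE 0.44). That is 25% of the 4 in each direction, against 13.3% below and 11.1% above of all tested mRNAs. The groups overlapped for DES and PECAM1. The biliary marker EPCAM had -0.44, -0.38 and -0.60, and the adipocyte marker ADIPOQ, at 1.20 CPM or less in every bird, had 0.03, 0.53 and -0.09. High-intake-fed bird 2 was the highest of its group in these 4 lists, as it was for the members, and high-intake-fed bird 3 was the lowest only for EPCAM and ADIPOQ. None of these models passed edgeR's adjusted threshold, and 1 of the 9 (DCN) had an unadjusted p under 0.05 (18.4% of all tested mRNAs did). The part of any of these cell types in the members' values was not tested.

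**Figure D5:**
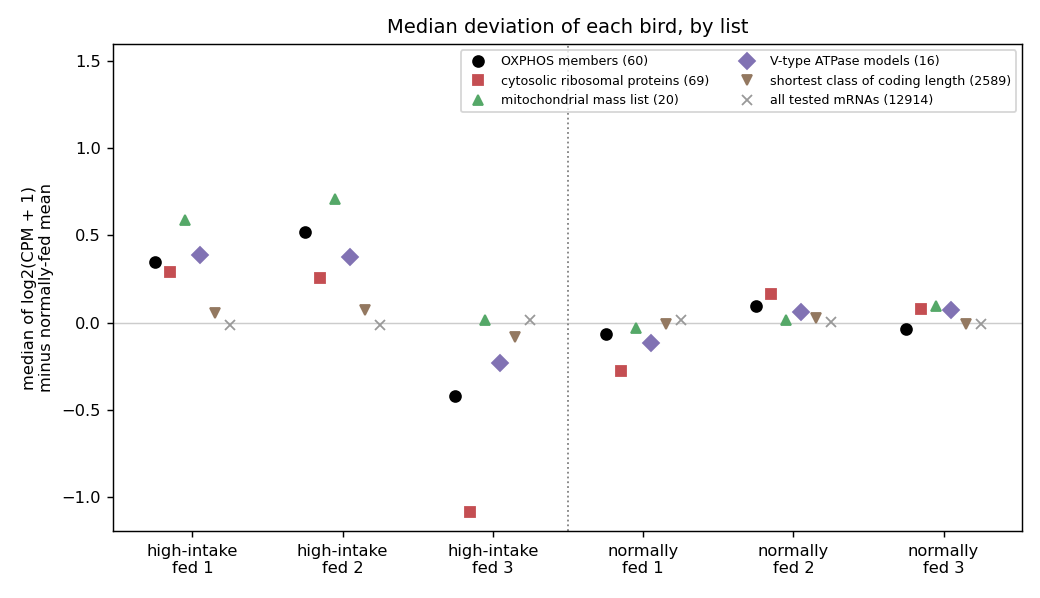
Median over each list of log2(CPM + 1) minus the normally-fed mean (y axis) in each bird, for the 60 oxidative phosphorylation (OXPHOS) members, 3 other gene lists, the shortest class of coding length and all tested mRNAs. The members stand at 0.35, 0.52 and -0.42 in the high-intake-fed birds, ribosomal proteins reach -1.09 in bird 3, and all tested mRNAs stay near 0.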

How the data were processed

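Liver RNA of 6 geese was depleted of ribosomal RNA and made into strand-specific libraries. The authors removed ribosomal reads with Bowtie2, aligned the rest with HISAT2, and deposited a raw count and an FPKM value for each gene model and bird. FastQC and BWA are named in the submitters' processing notes. The methods name StringTie for gene-level quantification and HTseq in the section on Gene Ontology, but tie neither to the deposited mRNA counts, and strand setting, annotation and genome build were not stated; coordinates are those of the deposited table.

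Counts were tested with edgeR 4.0.16 in R 4.3.3 (quasi-likelihood test, TMM scaling, and filterByExpr at its defaults of 10 for the count and 15 for the total), high-intake-fed over normally-fed with no covariate, with Benjamini-Hochberg adjustment over 12914 mRNAs. Its p-values set the group difference against the spread between birds, estimated jointly over both groups with information shared over mRNAs. A pseudocount of 1 was used for log2(CPM + 1). DESeq2 1.42.0, limma 3.58.1 and other filters and scalings were alternatives. On simulated data changes of 1.5, 2, 4 and 8-fold were recovered in 0%, 16%, 88% and 96% of 50 genes each. The members and lists were chosen with earlier results of these data known.

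Named members are, per complex, the 3 highest by CPM per kilobase and the 3 with the smallest p, plus the 5 largest positive and 5 largest negative fold changes overall. In 183 descriptions a scaffold name had replaced the letters chr, which was reversed before matching. Coding lengths hold no UTRs.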

Additional observations from a re-analysis of the deposited data

How the results depend on the processing

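The median log2 fold change of the members was positive under all 18 alternatives, between 0.01 and 0.47. The count of members called was 0 except with DESeq2 (2), edgeR's exact test (1), a fold over 2 with an unadjusted p under 0.05 (2, where 9.59% of all mRNAs passed) and without high-intake-fed bird 3 (2); leaving out each bird in turn gave 0 to 2. CYCS passed with DESeq2 (log2 1.48), edgeR's exact test (1.47) and without high-intake-fed bird 3 (1.84), and COA3 with DESeq2 (1.43). Members with all high-intake-fed birds below numbered 1 with library size only and 1 in FPKM, and those above 5 and 6. The cause of these shifts was not tested. Leaving out each bird in turn changed the sign of 27 of the 60 tested members at least once (15 of them without high-intake-fed bird 2, 8 without bird 1 and 8 without bird 3). Among the named members these were 8, which ranged over -0.0064 to 0.39 for NDUFS1, -0.10 to 0.43 for NDUFB3, -0.012 to 0.74 for COX4I1, -0.084 to 0.60 for COX5B and -0.014 to 0.26 for COX6A1 (each negative without high-intake-fed bird 2), -0.074 to 0.52 for ATP5PB (negative without high-intake-fed bird 1), -0.25 to 0.024 for COX20 (positive without normally-fed bird 2) and -0.31 to 0.071 for the COX6B-like model (positive without high-intake-fed bird 3 and, at 0.061, without normally-fed bird 2). The COX6B-like model was at 0.54 in FPKM. Of 386 alternatives of 24 named members, 372 kept direction and side of the threshold. Adding 8 respiratory-chain models that the words of the rule missed, chosen after seeing the data, left 0 called and gave a median of 0.23.

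The sample titles give both groups the same replicate numbers, while the deposited column names number the birds differently. Deviations of same-numbered birds correlated at -0.16, 0.03 and -0.18, and those of other pairs at -0.08 to 0.22. The labels name no pairs of birds, and these few correlations cannot decide whether any were paired. With the replicate block 0 members and 61 of 12914 mRNAs were called, and the members' median was 0.15.

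The common coefficient of variation was 0.356. Data were simulated for 3 birds per group with a spread that followed the fitted trend over abundance and was equal in both groups. Changes of 2-fold were rarely recovered there. The simulation held no split of birds and no wider spread in high-intake-fed birds, so its rates need not hold for the members.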

Other observations

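The 8 respiratory-chain models whose descriptions the rule's words missed (NDUFV1, NDUFS4-type, NDUFA5-type, NDUFA8, NDUFC2 and NDUFAB1 of complex I, CYC1 and UQCRQ of complex III) were looked at after the data were seen. All 8 had a positive log2 fold change, with a median of 0.43 and 0 called by edgeR at an adjusted p under 0.05. At an unadjusted p under 0.05, 2 passed (25%, against 18.4% of all tested mRNAs). Their median deviation was 0.67, 0.80 and -0.21 in the high-intake-fed birds.

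NDUFC2, a complex I subunit of the membrane arm, had 92.9, 145 and 44.2 CPM in high-intake-fed birds, against 33.2, 49.2 and 51.4 CPM in normally-fed birds, a log2 fold change of 1.08 (SE 0.41, edgeR adjusted p = 0.219). UQCRQ, a small complex III subunit, had 59.7, 82.9 and 29.2 CPM in high-intake-fed birds, against 29.5, 32.3 and 28.7 CPM in normally-fed birds, a log2 fold change of 0.92 (SE 0.35, edgeR adjusted p = 0.216). In both genes high-intake-fed birds 1 and 2 were above every normally-fed bird and bird 3 lay among them.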
